A study of Mus musculus with 33 samples.

Results

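The heat shock chaperone genes examined here are Hspa1a, Hspa1b, Hspa8, Dnajb1, Hsph1, Bag3, Hsp90aa1, Hspb1, Hspd1 and Hspe1. They were chosen by symbol, as genes of the cytosolic and mitochondrial folding machinery that heat and tissue handling are known to induce. All 10 were found among the 26130 gene symbols of a table of 56414 rows, in 9 rows, since Hspa1a and Hspa1b share a row. RNA of spleen and lymph node came from C57Bl/6 mice without tumours whose drinking water held 0.5% nicotinamide (NAM, the amide of vitamin B3) over 1, 3 or 14 days, or that received none and are called untreated. Of the 33 libraries 20 carry the spleen label, 5 in each of the 4 groups, and 13 carry the lymph node label: 3 from untreated mice, 2 after 1 day of NAM, 4 after 3 days and 4 after 14 days. Age, sex, the time of day of collection and whether the organs of a group came from separate animals are not stated in the labels, so p-values measure the spread between these libraries. The 3 durations share their untreated libraries.

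Chaperones bind unfolded protein and help it fold, refold or be degraded. In unstressed cells the heat shock factor HSF1 is held inactive by chaperones, and when unfolded protein accumulates it forms trimers that bind arrays of the unit NGAAN in the promoters of chaperone genes. HSP70 proteins work in a cycle with J-domain proteins, which deliver substrates and start ATP hydrolysis, and with nucleotide exchange factors, which release them, and in lymphoid tissue as elsewhere this cycle also folds newly made protein in activated cells.

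Promoters of the members are shown because they hold the units that HSF1 binds. RefSeq windows of 300 bases, from 250 before to 50 after a start site of GRCm38.p6, were matched for 8 of the 10 members, in 11 windows. Hspa8 and Hsp90aa1 were not matched. A pair of inverted units, GAANNTTC or TTCNNGAA, each its own reverse complement, was present in 8 of the 11 windows, which belong to 7 members, and in 15.1% of 32851 windows of all genes. An array of 3 units, GAANNTTCNNGAA or its reverse complement TTCNNGAANNTTC, which holds overlapping pairs, was present in 4 windows of 3 members, Hspd1, Hspe1 and Hsph1, and in 0.603% of all windows. The Hsph1 array lay after both of its annotated starts and is not in the stretch printed, which holds a single pair before the start. No pair was in the windows of Dnajb1, and that of Bag3 lay at 42 bases after the start. The following stretches are written 5′ to 3′ on the strand of the gene, with each pair of units in capitals. The first is the 250 bases before the Hspa1a start, chr17:34972157-34972406 on the minus strand, and the second lies before Hspe1, chr1:55088053-55088082 on the plus strand. The third lies before Hsph1, chr5:149636351-149636380 on the minus strand, and the fourth is the 150 bases before Hspb1, chr5:135887769-135887918 on the plus strand.
Hspa1a: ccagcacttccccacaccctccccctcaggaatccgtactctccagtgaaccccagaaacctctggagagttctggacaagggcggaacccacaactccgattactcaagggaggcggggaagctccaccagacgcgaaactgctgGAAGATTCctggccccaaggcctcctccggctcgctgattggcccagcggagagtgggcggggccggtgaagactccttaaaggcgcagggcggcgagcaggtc
Hspe1: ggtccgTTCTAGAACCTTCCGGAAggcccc
Hsph1: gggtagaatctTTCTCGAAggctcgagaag
Hspb1: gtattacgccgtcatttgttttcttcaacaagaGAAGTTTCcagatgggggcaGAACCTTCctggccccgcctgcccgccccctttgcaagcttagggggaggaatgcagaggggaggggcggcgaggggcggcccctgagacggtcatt

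The Hspe1 stretch is the same array as that of Hspd1, read from the other side, because the genes point away from each other from start sites at 55087932 and 55088148 with 215 bases between them. In GENCODE that array lies within an exon of an alternative Hspd1 transcript, 55087989 to 55088243, and most of the Hsph1 stretch within one of an alternative Hsph1 transcript, 149636320 to 149636376. The 250 bases before Hspa1b carry the same pair at -104 as those before Hspa1a and differ at 3 positions, C44T, T47C and T249G, counted from 1 at the 5′ end of the stretch with the Hspa1a base first. The coding sequences are 99.58% identical over 1923 aligned bases, with 8 substitutions and 3 gap bases, and the deposited table gives both genes 1 value, reported here as the Hspa1 row. A motif is a match of letters and not a measured binding site.

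On mm10 the rows lie at chromosome 17, 34956429 to 34972340 (Hspa1), chromosome 9, 40800018 to 40805208 (Hspa8), chromosome 8, 83608175 to 83612657 (Dnajb1), chromosome 5, 149614287 to 149636315 (Hsph1) and 135887919 to 135889563 (Hspb1), chromosome 7, 128523583 to 128546980 (Bag3), chromosome 12, 110690605 to 110696397 (Hsp90aa1), and chromosome 1, 55077834 to 55087932 (Hspd1) and 55088148 to 55091317 (Hspe1). Hspa8 holds the small nucleolar RNA genes Snord14c, Snord14d and Snord14e, Bag3 overlaps 2610306O10Rik, the Hspa1 row overlaps Gm20481, and an alternative transcript of Hspd1 overlaps Hspe1 on the other strand. Because no source used here states whether counting used strand, reads in these overlaps may be shared.

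Values are read counts per gene divided by a DESeq2 size factor of the library (normalised read count). The recovered whole reads of a spleen-labelled library numbered between 18325061 and 54830743, and those of a library with the other label between 30424968 and 46733974. The tissue labels went against their markers in 33 of 33 libraries: Glycam1, a mucin of lymph node venules, read 108167 to 214210 in those labelled spleen and 1.585 to 12.38 in those labelled lymph node, and Spic, a factor of splenic red pulp macrophages, read 774.3 to 1295 and 6117 to 10491. Nkx2-5, a factor of spleen stroma, was at 0 in 20 of the 20 libraries labelled spleen. The libraries are therefore named by their label throughout. The 2 labels were scaled separately, so levels set across them carry that limit and were not tested. In bulk RNA, fewer cells of a type and less RNA per cell cannot be told apart.

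Hsph1, Hsp90aa1 and Dnajb1 were higher after 1 day of NAM under the spleen label, and Dnajb1 was the only member called higher in both sets of libraries, at 1 and 3 days in the spleen-labelled set and at 3 days in the other. The stress-inducible Hspa1 row was called at none of the 3 durations under either label, and it varied most between libraries. No member was called lower in any of the 6 comparisons as designed, while alternatives called Bag3 lower under the spleen label, with library weights at 1 and 3 days and without NAM replicate 1 at 3 days. In the comparison with most calls, 1 day under the spleen label, the percentage of a library's normalised counts on the mitochondrial chromosome separated the groups, at 4.849% to 8.206% in treated and 8.919% to 9.851% in untreated libraries. Over the 20 libraries that share had r = -0.55 with Hsph1, -0.74 with Hsp90aa1 and -0.51 with Dnajb1, and its part in their rise and that of NAM cannot be told apart. All 9 rows passed the filter on low values under both labels, a mean normalised count of at least 10.

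**Figure D1:**
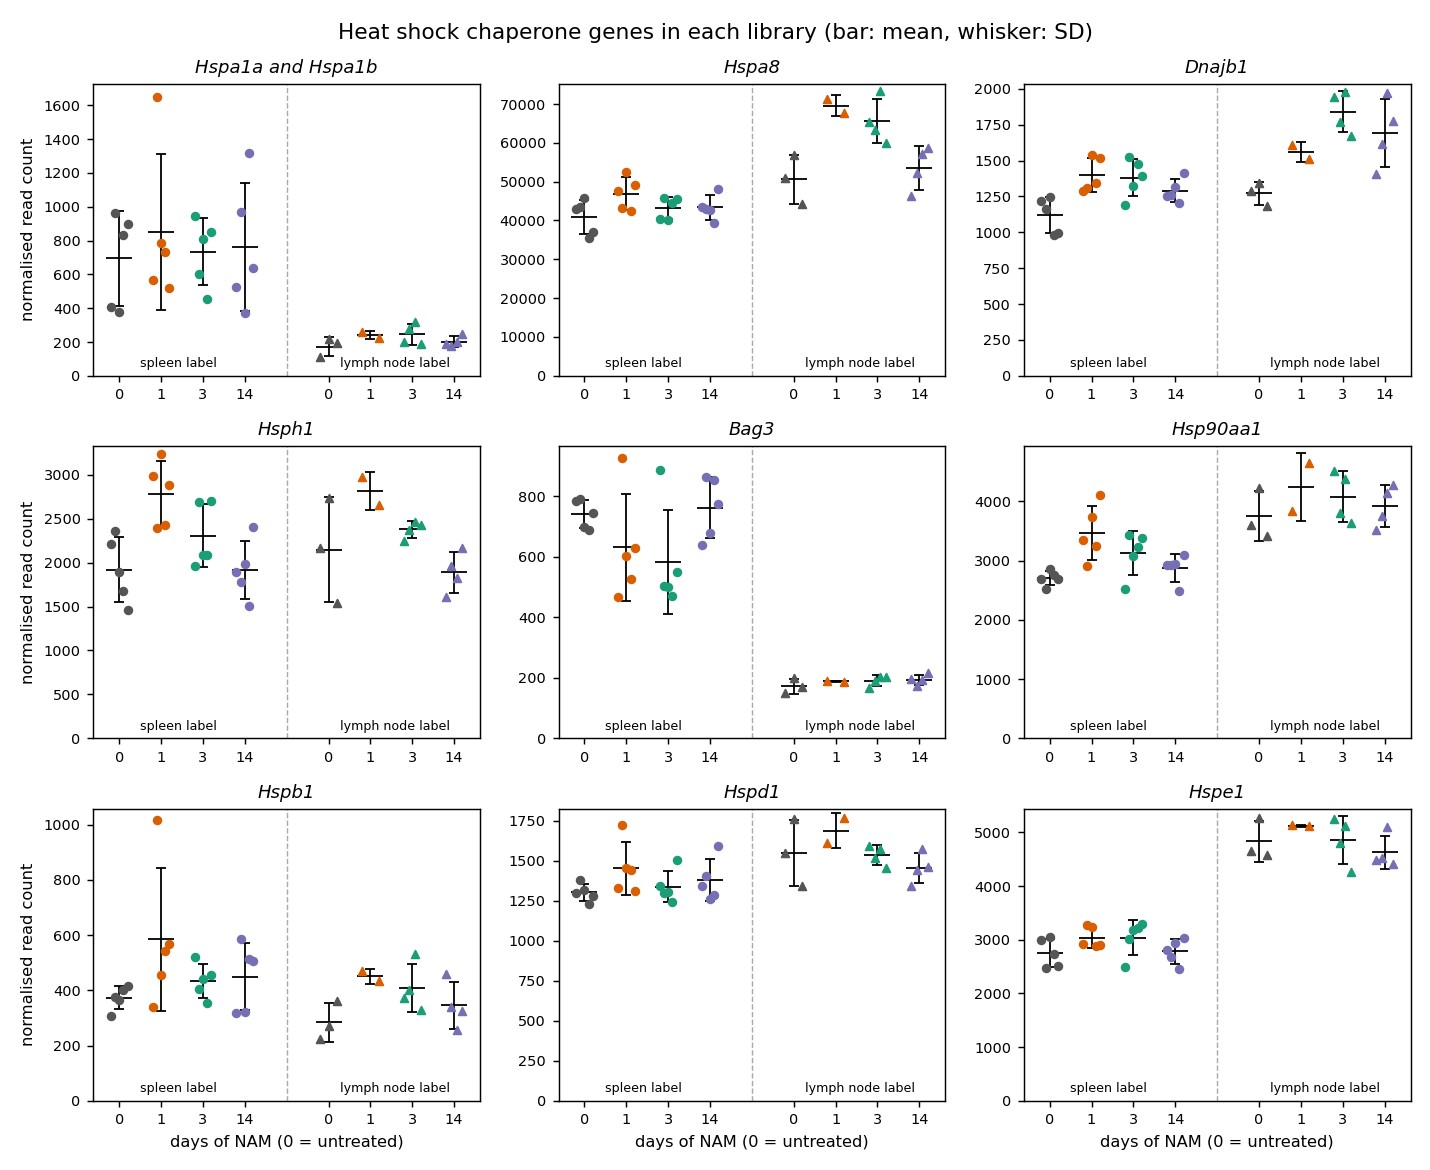
Normalised read count (linear axis from 0) of each row in every library against days of NAM, with circles for libraries labelled spleen, triangles for those labelled lymph node, a bar at the group mean and a whisker of 1 SD. The Hspa1 row of spleen-labelled libraries spreads from 369.6 to 1651, while the 5 spleen-labelled values of Hsp90aa1 at 1 day (2910 to 4102) all sit above the untreated ones (2518 to 2862), and the 2 labels were scaled separately.

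The HSP70 proteins come first. The Hspa1 row, which encodes the HSP70 that heat and stress induce, read 405.2, 961.8, 375.2, 835.1 and 898 in the untreated libraries labelled spleen and 565.9, 1651, 784.4, 731.9 and 519.3 at 1 day. At 3 days it read 946.2, 604.7, 809.1, 456.7 and 852.9, and at 14 days 524, 970.2, 369.6, 1316 and 635.6. Low and high libraries were present in every group, the untreated one included, and the groups overlapped. The highest library was 4.47 times the lowest, the widest range of the 9 rows under this label, and the change at 1 day was 0.27 ± 0.36 (log2 fold change ± SE, adjusted p = 0.652, limma). In node-labelled libraries the row read 111.3, 215 and 192.3 untreated, 257.2 and 224.9 at 1 day, 198.9, 277.7, 317.7 and 188.5 at 3 days, and 185.5, 178.8, 199 and 246.5 at 14 days. Both libraries at 1 day lay above the 3 untreated ones, but the change of 0.53 ± 0.26 did not pass the test (adjusted p = 0.343, limma), nor did that at 3 days, 0.53 ± 0.21 (adjusted p = 0.265, limma).

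Hspa8 encodes HSC70, the HSP70 that cells make without stress. Its normalised read count under the lymph node label was 50877, 56879 and 44268 untreated, 71415 and 67578 at 1 day, 65442, 63298, 73351 and 59975 at 3 days, and 46236, 52239, 57064 and 58541 at 14 days. The libraries at 1 and at 3 days all lay above the 3 untreated ones, and those at 14 days overlapped them. The change was 0.46 ± 0.11 at 1 day (adjusted p = 0.0588, limma) and 0.37 ± 0.10 at 3 days (adjusted p = 0.0683, limma), neither past the threshold of 0.05. The F test over the 4 groups was past it (adjusted p = 0.0455, limma), a call lost with the replicate number as a block and without the filter. DESeq2 on the recovered reads called both durations, with adjusted p = 0.00656 and 0.00759, where the alternatives ranged from 0.00656 to 0.259 at 1 day and from 0.00759 to 0.983 at 3 days. Among spleen-labelled libraries Hspa8 read 43086, 43490, 45708, 35465 and 36929 untreated and 47527, 43210, 52427, 42413 and 49059 at 1 day. There 3 of 5 treated libraries lay above the highest untreated one, and the change of 0.20 ± 0.09 did not pass (adjusted p = 0.126, limma).

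Dnajb1 encodes the J-domain protein HSP40, which starts ATP hydrolysis by HSP70. It read 1215, 1165, 1247, 981.7 and 997.1 in untreated libraries labelled spleen, 1286, 1307, 1536, 1342 and 1516 at 1 day, and 1190, 1527, 1324, 1473 and 1392 at 3 days. All 5 libraries at 1 day and 4 of 5 at 3 days lay above the highest untreated one, and the exception was replicate 1 at 3 days. The libraries at 3 days were also the deeper ones, with 43632016 to 54830743 whole reads against 18325061 to 31486631 untreated, and the part of depth in the result was not tested. Dnajb1 rose by 0.32 ± 0.08 at 1 day (adjusted p = 0.0133, limma) and by 0.30 ± 0.08 at 3 days (adjusted p = 0.041, limma). Its values at 14 days, 1254, 1263, 1312, 1201 and 1414, overlapped the untreated ones (0.21 ± 0.08, unadjusted p = 0.0233, adjusted p = 1, limma). The call at 3 days was lost in 8 of 10 fits that each left out 1 library (adjusted p between 0.00596 and 0.115), and over the other alternatives its adjusted p was 0.000601 to 0.0946.

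Dnajb1 of the lymph node label read 1290, 1340 and 1186 untreated, 1606 and 1509 at 1 day, 1941, 1769, 1980 and 1673 at 3 days, and 1407, 1618, 1967 and 1773 at 14 days. Every treated library of this label lay above the 3 untreated ones. The group means were 1272 ± 78.67 (SD, n = 3), 1557 ± 68.8 (n = 2), 1841 ± 144.7 (n = 4) and 1691 ± 237.4 (n = 4). Dnajb1 rose by 0.53 ± 0.10 at 3 days (adjusted p = 0.00935, limma, and 4.76e-05 to 0.983 over the alternatives), whereas the changes of 0.29 ± 0.12 at 1 day and 0.40 ± 0.10 at 14 days did not pass (adjusted p = 0.244 and 0.0678, limma). The call at 3 days was lost without untreated replicate 3 (adjusted p = 0.0627). It was also lost with the erythroid score as a covariate, where the change was 0.62 with adjusted p = 0.983 and 0 of all 18215 rows were called. Markers of red cell precursors fell in the same libraries, as given further on.

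The exchange factors release substrate from HSP70. Hsph1, an HSP110 protein, read 2211, 2364, 1892, 1679 and 1462 untreated and 2987, 2391, 3239, 2428 and 2886 at 1 day under the spleen label. Its 5 values at 1 day lay above all 5 untreated ones, the nearest by 2391 against 2364, and it rose by 0.55 ± 0.14 (adjusted p = 0.0118, limma), from a mean of 1922 ± 371.2 to 2786 ± 367.3 (SD, n = 5 each). At 3 days it read 1966, 2689, 2088, 2085 and 2700 and at 14 days 1889, 1781, 1985, 1501 and 2408, overlapping the untreated libraries both times. Its lymph node-labelled values were 2164, 2741 and 1539 untreated, and the 2971 and 2661 at 1 day overlapped that range (0.43 ± 0.17, adjusted p = 0.231, limma). At 3 days it read 2248, 2369, 2467 and 2430 and at 14 days 1613, 1959, 1830 and 2171, inside the untreated range.

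Bag3, which couples HSP70 to small heat shock proteins and to autophagy, was the member whose changes under the spleen label were negative at 1 and 3 days. It read 782.6, 789.6, 697, 688.4 and 744.2 untreated, 465.8, 926.1, 603, 527.7 and 628.8 at 1 day, 885.5, 503.9, 500.8, 470.1 and 548.3 at 3 days, and 639.8, 863.6, 677.2, 851.8 and 774.6 at 14 days. At each of 1 and 3 days, 4 libraries lay below all untreated ones and 1 lay above them, replicate 2 at 1 day and replicate 1 at 3 days. Neither change passed, at -0.27 ± 0.17 (adjusted p = 0.282, limma) and -0.39 ± 0.17 (unadjusted p = 0.0308, adjusted p = 0.178, limma). With library weights both did, at -0.37 and -0.51 (adjusted p = 0.0338 and 0.00158, the lowest of the alternatives, which reached 0.399 and 0.278). Without replicate 1 at 3 days Bag3 was called lower, with Dnajb1 and Hsp90aa1 called higher, when 15.2% of all rows were called against 2.82% higher and 2.74% lower with it. That replicate had 14% of its normalised counts on the mitochondrial chromosome against 5.951% to 8.291% in the other libraries of its group, and the part of this share in the result was not tested. Under the lymph node label Bag3 read 149, 198.5 and 168 untreated and 166.8 to 214.6 in the 10 treated libraries, and the groups overlapped.

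Hsp90aa1 encodes the inducible form of HSP90, which matures kinases and steroid receptors. In spleen-labelled libraries it read 2694, 2518, 2862, 2761 and 2696 untreated and 3346, 2910, 3733, 3254 and 4102 at 1 day. All 5 treated values lay above all untreated ones, and the row rose by 0.35 ± 0.09 (adjusted p = 0.0135, limma), from 2706 ± 125.4 to 3469 ± 459.2 (SD, n = 5 each). At 3 days it read 2527, 3440, 3073, 3221 and 3389, with replicate 1 alone inside the untreated range (0.20 ± 0.09, adjusted p = 0.199, limma), and at 14 days 2926, 2926, 2940, 2478 and 3097. Its groups under the lymph node label overlapped, from 3413 to 4223 untreated and 3509 to 4649 in treated libraries.

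Hspb1, a small heat shock protein that holds unfolded protein without ATP, read 308.2, 377.4, 366.3, 400.1 and 416 untreated and 337.8, 1018, 455.1, 541.6 and 568.6 at 1 day under the spleen label. Of the 5 libraries at 1 day 4 lay above the untreated ones, and replicate 2 was the highest of all 20. The change was 0.55 ± 0.22 (adjusted p = 0.0923, limma) and 0.33 without replicate 2 (adjusted p = 0.248), and it was called without replicate 1 (adjusted p = 0.0246) and by DESeq2 (adjusted p = 0.0272, the lowest of the alternatives, which reached 0.273). At 3 days it read 519.4, 403.1, 441.1, 354.3 and 453.9 and at 14 days 318.5, 584.6, 322.7, 512.4 and 505.2, overlapping the untreated range. Under the lymph node label it read 222.5, 269.1 and 360.2 untreated, 469.7 and 432 at 1 day, 371.2, 402.4, 529.8 and 329.3 at 3 days, and 459.7, 339.5, 257.3 and 325.3 at 14 days. Both values at 1 day lay above the untreated ones, and the change of 0.69 ± 0.23, the greatest of the 9 rows there, did not pass (adjusted p = 0.157, limma).

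The mitochondrial chaperonin genes Hspd1 (HSP60) and Hspe1 (HSP10), which share the promoter shown above and whose proteins form 1 folding chamber, were the steadiest rows. Over 20 libraries labelled spleen Hspd1 ranged from 1230 to 1724 and Hspe1 from 2448 to 3294, and over 13 labelled lymph node from 1340 to 1765 and from 4265 to 5276. The highest library was at most 1.4 times the lowest for either gene. Their changes ran from -0.09 to 0.15 over the 6 comparisons, and neither gene was called in any of them. Hspd1 and Hspe1 followed each other over libraries labelled lymph node with Pearson r = 0.80 (n = 13) and less over those labelled spleen, r = 0.37 (n = 20), and reads of their overlap may be counted for both.

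**Figure D2:**
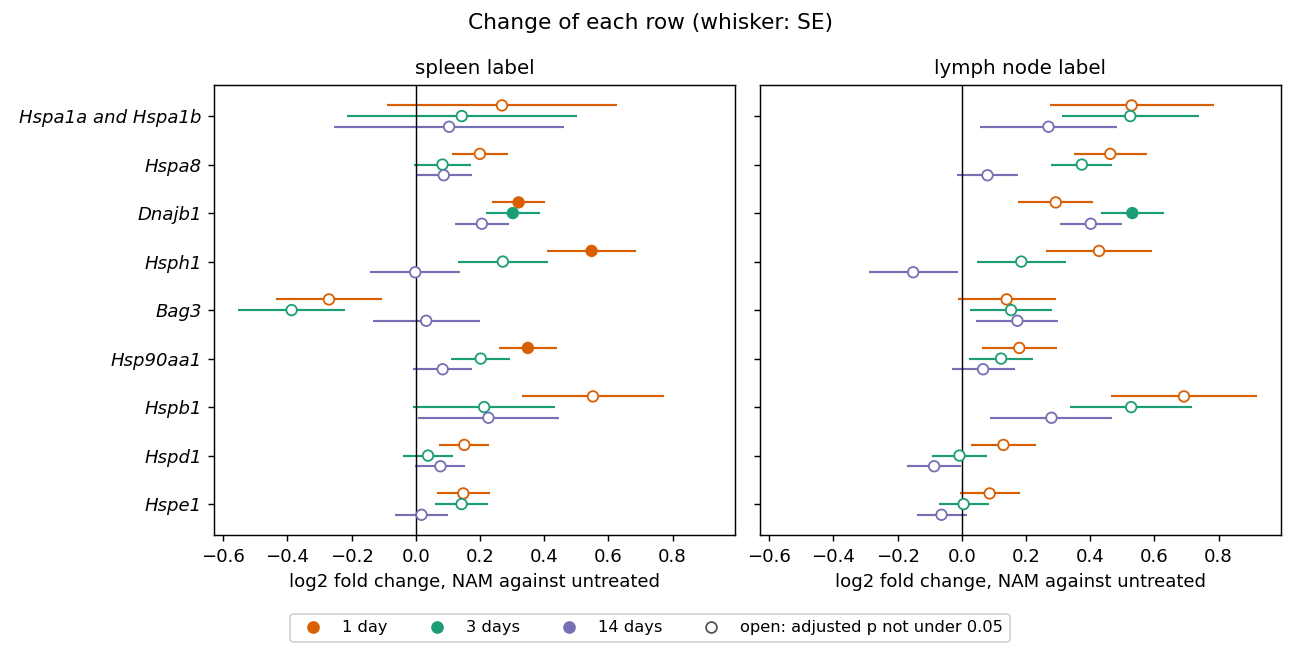
Log2 fold change of each row, NAM against untreated, on log2(normalised read count + 1) with a whisker of 1 SE, for 1, 3 and 14 days under each label, where filled points have an adjusted p under 0.05 (limma). The filled points are Dnajb1, Hsph1 and Hsp90aa1 at 1 day (0.32, 0.55 and 0.35) and Dnajb1 at 3 days (0.30) under the spleen label, and Dnajb1 at 3 days (0.53) under the lymph node label.

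Counted over the 9 rows, 3 were called higher at 1 day under the spleen label, when 8.56% of the 18243 rows tested were called higher and 8.05% lower. At 3 days 1 of 9 was called higher against 2.82% of all rows. At 14 days 0 of 9 and 0% of all rows were called higher by limma, with 1 member at an unadjusted p under 0.05 and 0 by edgeR and by DESeq2. The median change of the members was 0.27, 0.14 and 0.08 at 1, 3 and 14 days, where the median of all rows was 0.0054, 0.00066 and 0.0032, and 8 of 9 members had a positive change each time. The F test over groups called 2 members, Hsph1 (adjusted p = 0.0248) and Dnajb1 (adjusted p = 0.0372), against 12.4% of all rows. Hsp90aa1, Hsph1 and Dnajb1 kept their call at 1 day in 10 of 11 alternatives and in the 10 fits that left out 1 library, and lost it where a change of at least 1.5-fold was required.

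With the lymph node label 0 of 9 members were called at 1 day by limma, with 4 at an unadjusted p under 0.05, 0 by edgeR and 1 by DESeq2, when 0.884% of the 18215 rows tested were called higher. At 3 days 1 member was called higher against 0.335% of all rows higher and 0.906% lower. At 14 days 0 were called by limma, with 1 at an unadjusted p under 0.05, 0 by edgeR and 1 by DESeq2 (Dnajb1), against 0.11% higher and 0.681% lower. The F test called 2 members, Dnajb1 (adjusted p = 0.0312) and Hspa8 (adjusted p = 0.0455), against 1.76% of all rows. Both calls were lost with the replicate number as a block and without the filter. The medians of the members were 0.29, 0.19 and 0.08, with 9, 8 and 6 of 9 positive, against medians of all rows between -0.00048 and 0.0023.

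The difference between the labels in a member's change was tested in 1 fit over all libraries. By limma 0 of 9 members differed at 1, 3 or 14 days, with 0, 2 and 0 at an unadjusted p under 0.05 and 0 by edgeR and by DESeq2 each time, when 1.69%, 0.735% and 0.14% of 17147 rows differed. At 3 days the change of Bag3 under the spleen label less that under the lymph node label was -0.54 ± 0.23 (unadjusted p = 0.0258, adjusted p = 0.292, limma), and that of Hspa8 was -0.29 ± 0.14 (unadjusted p = 0.0418, adjusted p = 0.354, limma). In level, on scales set separately, the ranges of the 2 labels did not overlap for 3 of 9 members, a share near the 32.2% of all 17147 rows. They were the Hspa1 row (369.6 to 1651 against 111.3 to 317.7), Bag3 (465.8 to 926.1 against 149 to 214.6) and Hspe1 (2448 to 3294 against 4265 to 5276).

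The partners of these chaperones were followed as lists. At 1 day under the spleen label, 5 of 8 subunits of TRiC, the chamber that folds actin and tubulin in the cytosol, were called higher, with a median change of 0.26 over the list, beside the 8.56% of all rows called higher and 8.05% lower in this comparison. Cct4 rose by 0.43 (adjusted p = 0.00464, limma), from 7235 ± 724.8 to 9744 ± 528.5 (SD, n = 5 each), and Cct7, Cct3 and Cct8 rose by 0.30 each. Among mitochondrial chaperones and proteases 3 of 8 were called higher (median 0.25), namely Clpx (0.40, adjusted p = 0.000609), the exchange factor Grpel1 (0.49, adjusted p = 0.00298) and Lonp1 (0.32, adjusted p = 0.0311). Replicate 2 at 1 day was the highest of its group for all 3, at 1840, 4434 and 1098. Of other HSP70 and J-domain partners 3 of 14 were called higher and 0 lower (median 0.11), namely Bag1 (0.48), Hspa4l (0.37) and the row that Dnaja1 shares with Mir207 (0.37).

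HSP90 co-chaperones moved both ways at 1 day under this label, with 2 of 10 higher and 1 lower (median 0.08). Ahsa2, of the family that speeds HSP90 hydrolysis, rose by 0.53 (adjusted p = 0.00191, limma), Fkbp4 rose by 0.23 (adjusted p = 0.0308, limma) and Ppid fell by 0.35 (adjusted p = 0.00425, limma). Of 4 tested genes of the heat shock factor list, Hsf1 fell from 1617 ± 161.2 to 1229 ± 84.8 (SD, n = 5 each, log2 fold change -0.39, adjusted p = 0.00157, limma) and Hsf2 rose from 272.6 ± 16.05 to 378.5 ± 54.41 (0.46, adjusted p = 0.0125, limma). The 5 values of Hsf1 at 1 day, 1144 to 1321, lay below the untreated 1462 to 1835. Of 15 chaperones of the endoplasmic reticulum 1 was called, a share no greater than that of all rows, and it was Hspa5 (BiP), which rose by 0.44 (adjusted p = 0.0131, limma). The other small heat shock proteins had 0 of 5 called by limma, 0 at an unadjusted p under 0.05 and 0 by edgeR and by DESeq2, with a median of 0.44 and replicates far apart, as for Hspb8 at 527.5 ± 239.3 untreated and 901.9 ± 608.3 at 1 day (SD, n = 5 each).

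At 3 days under the spleen label 3 of 64 partner rows were called, a share (4.69%) no greater than the 5.55% of all rows. Ptges3 (p23), a co-chaperone of HSP90, rose by 0.43 (adjusted p = 0.0189, limma), Clpx rose by 0.30 (adjusted p = 0.0126, limma) and Hsf1 fell by 0.27 (adjusted p = 0.0327, limma). TRiC had 0 of 8 called by limma, with 4 at an unadjusted p under 0.05 and 1 each by edgeR and DESeq2. No gene of these partner lists was called at 14 days under this label by limma, edgeR or DESeq2, and 1 of the small heat shock proteins had an unadjusted p under 0.05.

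Under the lymph node label the called partners were 4 chaperones of the endoplasmic reticulum at 1 day, named after their values were seen, and 1 J-domain row at 3 days. At 1 day 4 of 15 chaperones of the endoplasmic reticulum rose (median 0.31), beside 0.884% of all rows called higher: Hsp90b1 by 0.52 and Pdia4, on a row shared with Mir704, by 0.45 (both adjusted p = 0.0297, limma), Hspa5 by 0.35 (adjusted p = 0.0486, limma) and Dnajc3 by 0.35 (adjusted p = 0.0498, limma). Replicate 1 of these 2 libraries held summed counts of pancreas genes of 130418, against 1093 in replicate 2 and 1196 to 1270 untreated, and edgeR called 6 and DESeq2 10 of the 10 pancreas rows (limma 0). Hspa5 read 19249 in replicate 1 and 18832 in replicate 2 against 13769 to 15789 untreated, and Hsp90b1 read 42370 and 41214 against 27882 to 30446. For both genes each replicate lay above the untreated libraries, and the part of the pancreas RNA in the result was not tested. Of the lymph node markers, Ccl21a, a chemokine of lymph node stroma, rose by 0.90 in the same comparison (adjusted p = 0.0126, limma), and its part was not tested. At 3 days the row of Dnaja1 and Mir207 rose by 0.48 (adjusted p = 0.0442, limma), with 1 of 14 of its list called higher beside 0.335% of all rows. The TRiC, HSP90 co-chaperone, mitochondrial, small heat shock protein and heat shock factor lists had 0 called by limma and 0 by edgeR and by DESeq2 at each duration, with 0 to 6 of a list at an unadjusted p under 0.05.

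**Figure D3:**
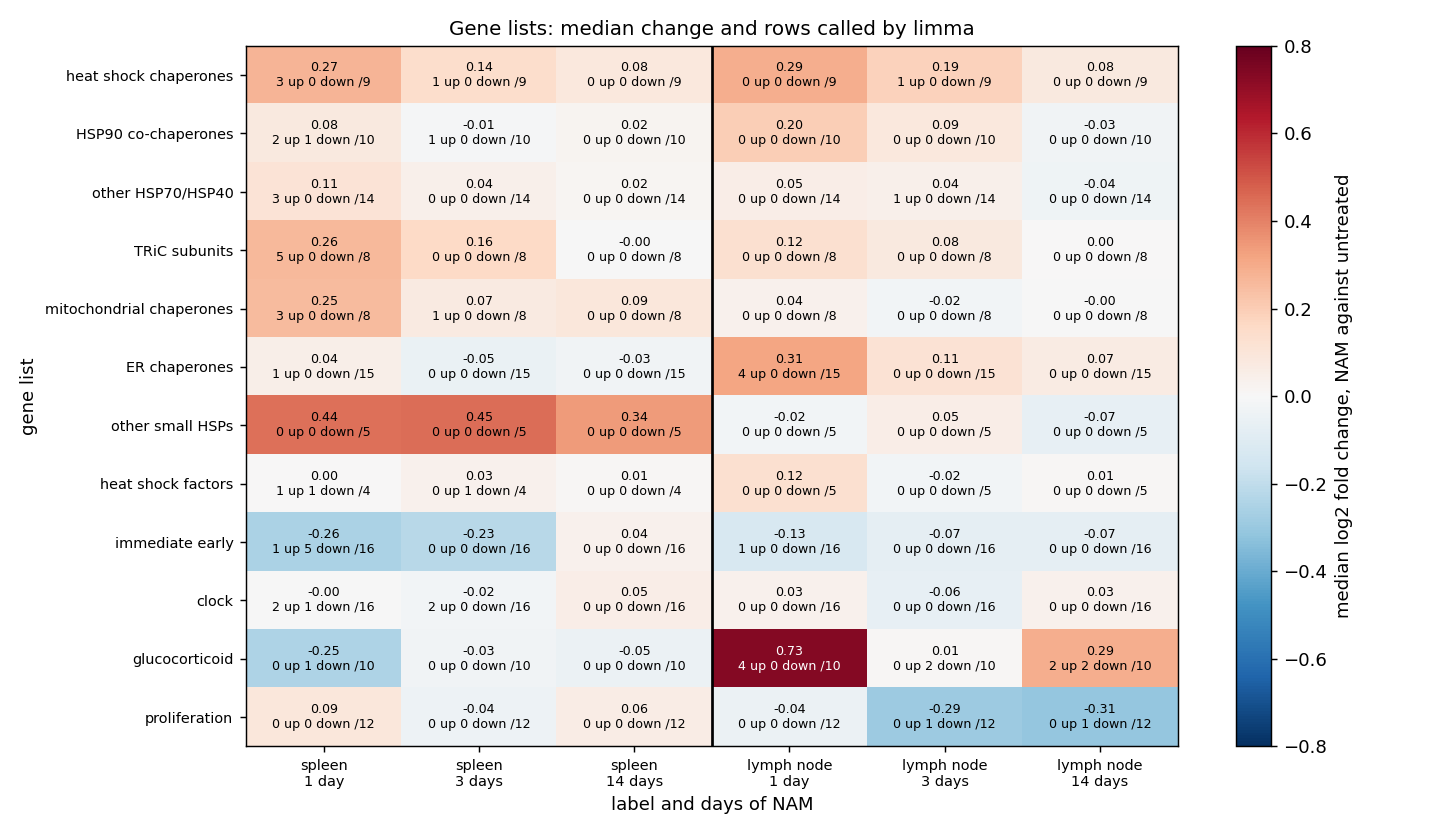
Heat map of the median log2 fold change of each gene list (NAM against untreated, colour scale and upper number), for 1, 3 and 14 days under each label, with the rows called higher and lower by limma out of the rows tested below it. TRiC (5 of 8 higher) and mitochondrial chaperones (3 of 8) stand beside the members (3 of 9) at 1 day under the spleen label, and the endoplasmic reticulum list (4 of 15) at 1 day under the lymph node label.

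Whether the members varied as a sign of handling was described with the immediate early genes, which tissue dissection is known to induce within minutes. At 1 day under the spleen label 5 of 16 were called lower and 1 higher (median -0.26), beside 8.05% of all rows lower and 8.56% higher, with Egr1 falling by 0.68 from 4089 ± 663.1 to 2555 ± 399.3 (SD, n = 5 each, adjusted p = 0.00188, limma), Fosb by 0.75, Egr3 by 0.58 and Nr4a1 by 0.40. The 3 called members rose in the same comparison, and the part of handling in their rise was not tested. Under the lymph node label at 1 day 1 of 16 was called higher and 0 lower (median -0.13), beside 0.884% of all rows called higher. It was Dusp1, which rose by 1.13 (adjusted p = 0.0309, limma) and was named after its values were seen. Dusp1 is also a gene of the glucocorticoid list given further on. In that comparison edgeR called 1 and DESeq2 3 of the 16. Over single libraries the correlation of the 9 members with the mean log2 value of the list ran from -0.50 to 0.38 (Pearson r, n = 20) under the spleen label and from -0.51 to 0.14 (n = 13) under the lymph node label. After the group means were removed the ranges were -0.25 to 0.42 and -0.40 to 0.43, and under the spleen label the sign turned for Hsp90aa1 (from -0.26 to 0.42), Hspe1 (from -0.10 to 0.38), Dnajb1 (from -0.28 to 0.27), Hspa8 (from -0.14 to 0.27), Hspb1 (from -0.24 to 0.08) and Hspd1 (from -0.21 to 0.02). The Hspa1 row had r of -0.28 and 0.04, and of -0.25 and 0.41 within groups. These points share a library and a size factor with the members, as do those of all the correlations that follow, which are descriptions without a test.

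Over the 20 libraries labelled spleen 8 of the 9 rows could be described as a set of 5 that varied together and a set of 3 that did not follow them, sets named after the values were seen. Hspd1 belonged to neither, with r of 0.15 to 0.42 with the 5 rows and of 0.29 (Bag3), 0.47 (Hspa1 row) and 0.69 (Hspb1) with the 3. Hspa8, Dnajb1, Hsp90aa1, Hsph1 and Hspe1 correlated with each other at r = 0.54 to 0.83, and at 0.42 to 0.88 after the group means were removed. The Hspa1 row, Hspb1 and Bag3 correlated with each other at 0.41 to 0.73, and at 0.62 to 0.78 within groups. Between the sets r was -0.65 to 0.15, and -0.60 to -0.15 within groups. Over the 13 libraries labelled lymph node the ranges were 0.25 to 0.82 within the 5 rows, 0.36 to 0.72 within the 3 and -0.05 to 0.66 between them, so the division was less clear there.

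**Figure D4:**
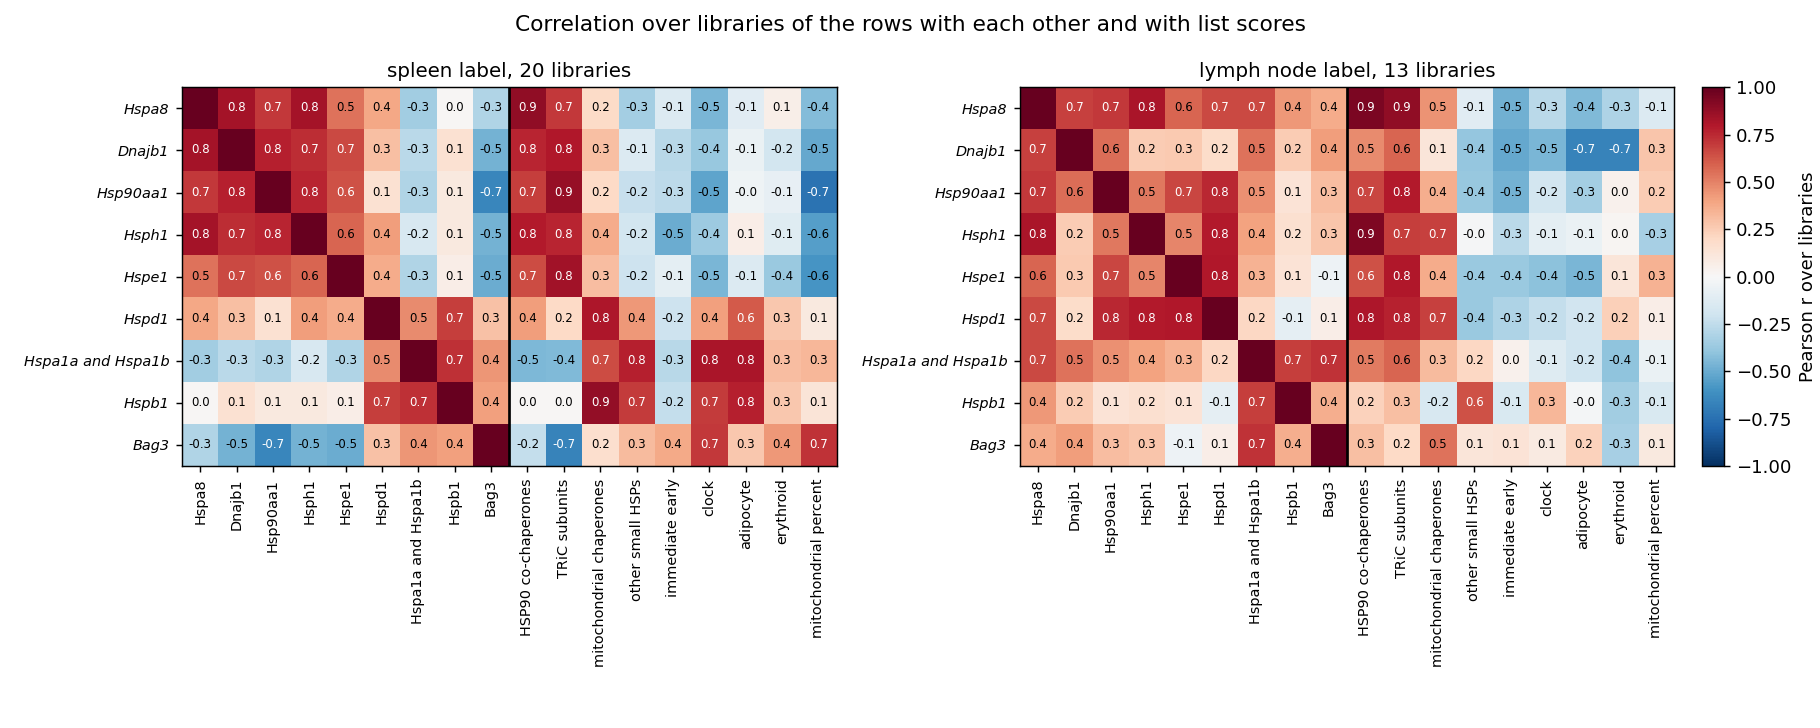
Pearson r over 20 libraries labelled spleen (left) and 13 labelled lymph node (right) of each row with the other rows (left of the line) and with list scores or the mitochondrial percent (right of the line), colour from -1 to 1. In the left panel the block of Hspa8, Dnajb1, Hsp90aa1, Hsph1 and Hspe1 (0.54 to 0.83) stands apart from the Hspa1 row, Hspb1 and Bag3, with -0.65 to 0.15 between them.

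The sets also differed in what they moved with. The 5 rows correlated with the score of HSP90 co-chaperones at 0.65 to 0.89 and with that of TRiC at 0.71 to 0.87 under the spleen label, and at 0.47 to 0.94 and 0.58 to 0.89 under the lymph node label. The Hspa1 row and Hspb1 instead correlated with the adipocyte score under the spleen label, r = 0.82 and 0.78 (0.84 and 0.74 within groups), while Bag3 had r = 0.27 (0.49 within groups) and the 5 rows ranged from -0.14 to 0.07 (-0.47 to -0.26 within groups). In the untreated group, where the Hspa1 row was lowest in replicates 1 and 3, the adipocyte score was 10.59 and 11.96 in those 2 and 12.85 to 13.25 in the other 3. The Hspa1 row, Hspb1 and Bag3 correlated with the clock score at 0.70 to 0.82 and the 5 rows at -0.53 to -0.36. With the mitochondrial percent the 5 rows had r of -0.74 to -0.43, Hspb1 0.13, the Hspa1 row 0.33 and Bag3 0.72. Within groups these were -0.69 to -0.27, 0.48, 0.51 and 0.69. With the log2 whole reads of the library all 9 rows had -0.29 to 0.37, and -0.39 to 0.53 within groups, where the Hspa1 row had 0.53.

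**Figure D5:**
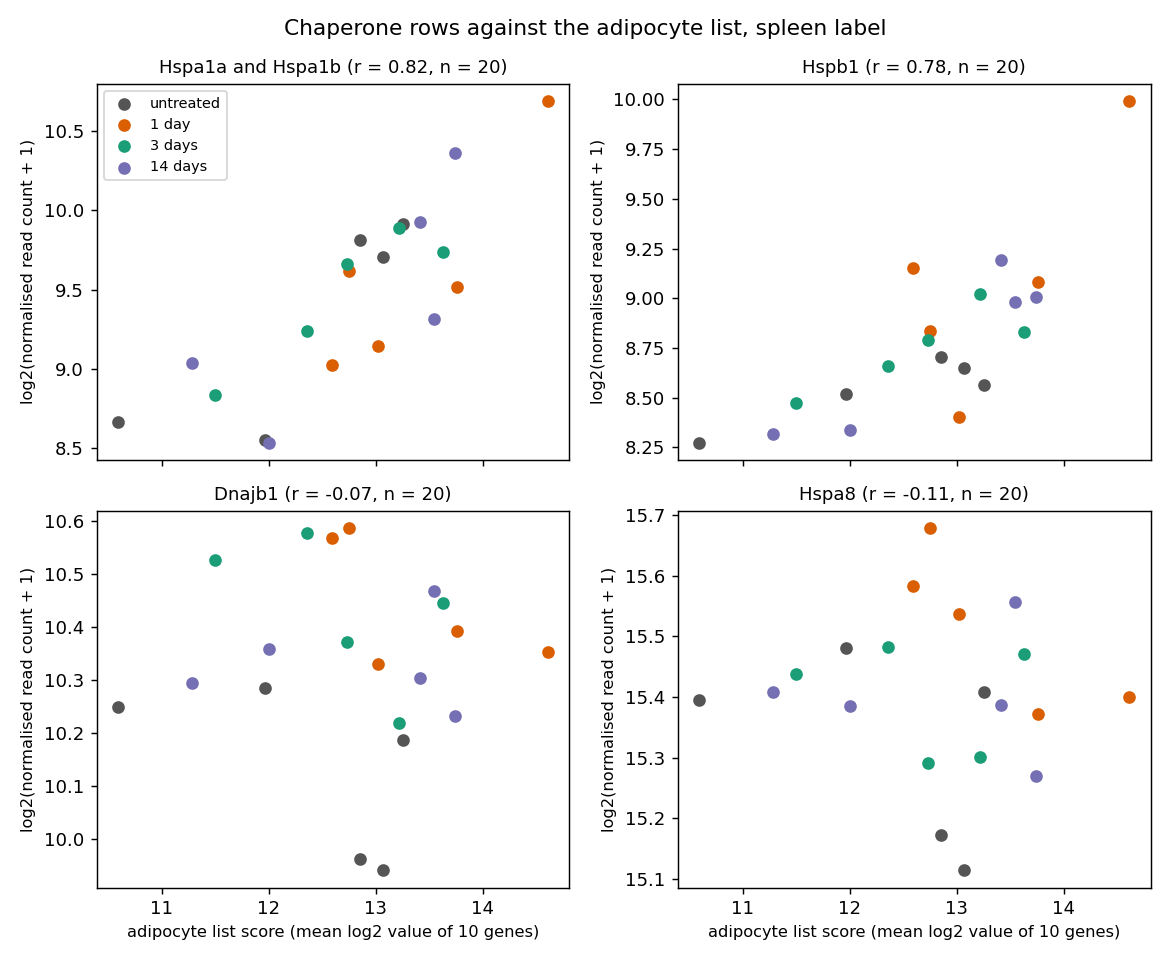
Log2(normalised read count + 1) of 4 rows against the adipocyte score (mean log2 value of 10 genes) over the 20 libraries labelled spleen, coloured by group. The Hspa1 row and Hspb1 climb with the score (r = 0.82 and 0.78), and Dnajb1 and Hspa8 do not over all libraries (r = -0.07 and -0.11).

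The adipocyte score at 1 day exceeded the highest untreated score, 13.25, in 2 of 5 libraries. The 10 genes of the list, none at 0, summed to between 39982 and 223386 in untreated libraries labelled spleen, and after 1, 3 and 14 days of NAM to between 135109 and 571235, 65778 and 267017, and 55502 and 283107, and 1 of 10 was called at 1 day, Retn, which rose by 1.61 (adjusted p = 0.04, limma). With the adipocyte score as a covariate, an alternative added after the data were seen, the 3 called members kept their call at 1 day: Hsp90aa1 at 0.42 (adjusted p = 0.00329), Hsph1 at 0.61 (adjusted p = 0.00577) and Dnajb1 at 0.38 (adjusted p = 0.00326). Over all spleen-labelled libraries these rows hardly followed that score (r = -0.04, 0.07 and -0.07), so keeping the call says little about library make-up. The mitochondrial percent was not entered as a covariate. Hspb1 went from 0.55 to 0.26 (adjusted p = 0.273) and Hspa8 from 0.20 to 0.25, which was called (adjusted p = 0.0425). Over the alternatives the adjusted p of the 3 members ranged from 0.000955 to 0.0262, from 0.00312 to 0.0235 and from 0.00219 to 0.0401 in that order.

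The other lists at 1 day under the spleen label had few calls, to be read against the 8.56% of all rows higher and 8.05% lower. The clock genes Cry1 and Nr1d2 rose by 0.60 and 0.54 and Cirbp, an RNA-binding protein that cold induces, fell by 0.39 (2 higher and 1 lower of 16). Sgk1 of the glucocorticoid list fell by 0.35 (0 higher and 1 lower of 10). The proliferation list had 0 of 12 called by limma, edgeR or DESeq2 and 2 at an unadjusted p under 0.05. Of marker lists, pancreas had 0 of 2 called, erythroid 1 of 3 lower (Hemgn) and skeletal muscle 1 of 5 lower (Tnnt3). Of 2 tested spleen markers 1 was called higher, Vcam1, an adhesion molecule of stroma and macrophages, which rose by 0.64 at 1 day (adjusted p = 0.000872, limma) and by 0.37 at 3 days (adjusted p = 0.046, limma). The other, Spic, changed by -0.08 at 1 day (adjusted p = 0.677, limma). The score of these markers, the mean of both, had r of 0.56 to 0.71 with the set of 5 chaperone rows. Its part in their change was not tested. The lymph node markers had 0 of 3 called by limma, edgeR or DESeq2, with 0 at an unadjusted p under 0.05. Under the lymph node label at 1 day, 4 of 10 glucocorticoid genes rose, beside 0.884% of all rows called higher. Ddit4 rose by 1.93 and Tsc22d3 by 1.38, genes chosen after their values were seen. Another of the 4 was Dusp1, which the immediate early list also holds. At 14 days under this label 2 of 10 were called higher, Ddit4 by 0.915 and Tsc22d3 by 0.831, and 2 lower. Of all rows 0.11% were then called higher and 0.681% lower. The change of Hspa8 at 1 day was 0.42 when replicate 1 was left out and 0.50 when replicate 2 was (adjusted p = 0.273 and 0.173).

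Erythroid genes fell under the lymph node label at 3 days, with 9 of 9 called lower (median -3.18), and 3 of 9 at 14 days. Of all rows 0.906% were called lower at 3 days and 0.681% at 14 days. Their summed counts lay between 21596 and 32233 untreated, and after 1, 3 and 14 days of NAM between 14764 and 20914, 2287 and 12152, and 9491 and 14328. Dnajb1 correlated with the erythroid score at r = -0.67 over the 13 libraries and at 0.16 after the group means were removed. In the same comparison at 3 days the metallothioneins Mt2 and Mt1 fell by 1.89 and 0.61 and Rrm2, a subunit of ribonucleotide reductase, fell by 0.72. The erythroid score moved with the groups, so its part in the rise of Dnajb1 and that of NAM cannot be told apart here.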

How the data were processed

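PolyA RNA of 33 libraries was sequenced as paired reads. The authors deposited a table of normalised read counts, a linear signal in which the count of each gene is divided by a DESeq2 size factor, on mm10 with the gene annotation of the sequencing service. The submitters' processing notes name FastQC, Picard, SAMtools, STAR 2.4.0 and DESeq2. Members and lists were chosen with earlier results of these data known. Groups and replicate numbers came from the sample titles. Log2(normalised count + 1) of rows with a mean normalised count of at least 10 within a label entered a two-sided test in limma 3.58.1 (R 4.3.3, intensity trend), with the 4 groups of a label in 1 fit and Benjamini-Hochberg adjustment over all rows at 0.05. On this scale the change of low genes is understated. Whole reads recovered from the steps between values entered edgeR 4.0.16 and DESeq2 1.42.0 as alternatives. Scores are means of log2 values, and correlations are Pearson's. The members were named whatever their values, with up to 4 genes of each other list per label, those of smallest p in the comparison that called most members, and the 5 rows most like the mean of the members. The test was checked on simulated data. Covariates were added after the data were seen.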

Additional observations from a re-analysis of the deposited data

Results flagged for a closer look

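Within groups of 4 or 5 libraries, 3 of 54 sets of values held a library far from the others, where chance gives about 1 in 20. The Hspa1 row read 1651 in the spleen-labelled replicate 2 at 1 day, and 519.3 to 784.4 in the other 4 libraries of the group. For Bag3, the spleen-labelled replicate 1 at 3 days read 885.5, and the other 4 read 470.1 to 548.3. For Hsp90aa1, the spleen-labelled replicate 4 at 14 days read 2478, with 2926 to 3097 in the other 4.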

How the results depend on the processing

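The count of members called at 1 day under the spleen label was 3. It was 4 with DESeq2 (18.5% of all rows called) and with the adipocyte score as a covariate. It was 5 with library weights (4 higher and Bag3 lower, 21.6% of all rows called) and 0 where a change of at least 1.5-fold was required. At 3 days it was 1, with 4 under library weights (3 higher and Bag3 lower, 25.9% of all rows) and 0 without the filter, with the 1.5-fold rule or with only the 2 groups compared (0.767% of all rows). The F test under this label called 2, with counts from 1 (without the filter) to 5 (with library weights) over 8 alternatives. Under the lymph node label the count at 1 day was 0, and 1 with DESeq2, the 1.5-fold rule or only the 2 groups compared. At 3 days there it was 1, with 2 by DESeq2 or library weights and 0 with the erythroid score as a covariate or the 1.5-fold rule. At 14 days it was 0, and 1 by DESeq2. The F test there called 2, and 1 with quantile normalisation or edgeR and 0 without the filter, with counts from 0 to 3 over 8 alternatives. The difference between labels at 3 days called 0, and 1 with library weights. No member's change reversed its sign when it was called. The share of all rows called also moved with the setting, so these counts are not read as a result about the members alone. The causes were not tested.

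Leaving out 1 library at a time gave counts of 3 to 4, 0 to 3 and 0 to 0 at 1, 3 and 14 days for the spleen label, and of 0 to 0, 0 to 2 and 0 to 1 for the lymph node label. These counts too are not set against the share of all rows in each fit. The 3 at 3 days came without NAM replicate 1, the fit whose greater share of all rows called is given with Bag3 above. Dnajb1 kept its call at 3 days under the spleen label in 2 of 10 such fits. At 3 days under the lymph node label the count was 0 without untreated replicate 3 and 2 without NAM replicate 4, and the 1 at 14 days came without NAM replicate 1.

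Replicate numbers are shared by the groups, and the labels do not say whether they pair the libraries. The deviations of same-numbered libraries correlated above 0.1 in 13 of 30 pairs under the spleen label (r from -0.496 to 0.468). Under the lymph node label 0 of 16 did. Differently numbered libraries were not compared, so these values cannot settle whether libraries were paired. With the replicate number as a block the count at 3 days under the spleen label was 0, with Dnajb1 at adjusted p = 0.0505 (0.000601 to 0.0946 over the alternatives), that at 1 day was 3, and the F test under the lymph node label called 0.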

Other observations

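The rows that followed the mean log2 value of the members most closely differed between the labels. Over the 20 libraries labelled spleen they were Gm12338 and Ndufb8 (both Pearson r = 0.919), Immt (0.902), Uqcr10 (0.900) and Uqcr11 (0.899), of which all but the predicted gene Gm12338 encode proteins of the mitochondrial inner membrane. Over the 13 libraries labelled lymph node they were Pdia6 (0.934), a disulfide isomerase of the endoplasmic reticulum, Pgk1 (0.924), a glycolytic enzyme, Ift20 (0.918), Ahsa1 (0.915), the activator of HSP90 hydrolysis, and Grpel1 (0.904), the exchange factor of mitochondrial HSP70. These rows were picked for their correlation over all tested rows, and the points share a library and a size factor with the members.

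Hspd1 under the spleen label followed the adipocyte score (r = 0.61, n = 20) and the score of the other mitochondrial chaperones (r = 0.81), with which Hspb1 also correlated (r = 0.88).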
